A study of Mus musculus with 3 samples.

Results

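The kinesin motor genes were described in sorted ureteric duct cells of the mouse embryo. Members were all genes whose symbol is Kif followed by a number and at most 1 letter, or Kifc followed by a number, and 39 of the 19938 genes measured on the arrays met this rule. The rule reads gene names and no signal, although it was set with earlier results of these arrays known. The cells came from CD-1 embryos at 10.5 days post coitum (Theiler stage 18) that carried the transgene Tg(Hoxb7-EGFP)33Cos, in which the Hoxb7 promoter drives green fluorescent protein in the nephric duct and its derivatives. Ducts were dissected, dissociated with trypsin and sorted for fluorescence, with a pool size of 1 duct per sample and embryos of unknown sex. The 3 samples formed 1 untreated group with 1 Affymetrix array each, so no 2 conditions could be compared, and nothing in the labels says whether they came from separate embryos. The p-values cover the variation among these 3 arrays and nothing wider, and part or all of that variation may be technical.

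Kinesins are motor proteins that hydrolyse ATP to walk along microtubules, most of them toward the plus end, or to take microtubule ends apart. Different families build the mitotic spindle and the cleavage furrow, carry cargo into the cilium, or haul organelles and vesicles, over the longest distances in axons. The early duct is a proliferating epithelium whose cells carry a primary cilium, and Kif26b is known in the kidney from the metanephric mesenchyme, the tissue the ureteric bud grows into, where it is needed for the mesenchyme to attract the bud. The question addressed was which members of each functional class gave a signal above background in the duct cells.

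Values are log2 signals, and a probe set, the group of probes that reads a gene, gives 1 value per array. Background was the 95th percentile of 1210 probe sets for olfactory and vomeronasal receptors, genes of sensory neurons, which came to 5.695 (array 1), 5.732 (array 2) and 5.705 (array 3), with a mean of 5.711. A gene was called above background when limma's one-sided test of its distance from the cutoff gave a Benjamini-Hochberg adjusted p under 0.05 over all single-gene probe sets. By this rule 56.1% of all genes were called, the share to set beside each count of called genes at this cutoff. Probe sets differ in affinity, so a gene was tested against background and not against another gene, and class medians are descriptions. Of the kinesins, 16 held the same deposited value on all 3 arrays and 15 more held 1 value on 2 of them. Among all 19938 genes, 10129 (50.8%) were of the first kind and 5754 of the second. The spread of such genes is understated, and their p-values are too small. A gene of the first kind is marked "one value" below. The sorted cells also gave signal for genes of other cells: all 9 endothelial markers were called, with medians of 8.22, 7.21 and 8.26 on arrays 1, 2 and 3, led by Emcn at 10.07 ± 0.69 and Cdh5 at 9.10 ± 0.58 (mean ± SD, n = 3), with Esam lowest at 6.05 ± 0.09. The embryonic globin genes Hbb-y (10.02, 5.31 and 5.45) and Hba-x (8.89, 5.97 and 5.84) were high on array 1 alone, and 1 of 6 red cell markers was called, with Rhag lowest at 3.97; that count was 2 without array 1 and 3 without array 3. All 12 duct markers were called, from Calb1 at 11.71 ± 0.03 and Gata3 at 9.43 ± 0.20 down to Wnt11 at 5.99 ± 0.05. In bulk samples, fewer cells of a type and less RNA per cell cannot be told apart.

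Of the 39 kinesin genes, 29 were called above background (74.4%), against 56.1% of all genes, and 10 were not. All 11 measured kinesins of mitosis and cytokinesis and all 6 of general cargo transport were among the called genes. The cilium class gave 4 of 9 and the class of neuronal cargo gave 5 of 8. Kif26a was called and Kif26b was not. Of the remaining members, Kif2a and Kif12 were called and Kif2b was not. The median of the gene means was 6.77 for kinesins and 6.04 for all genes. By class it was 7.62 for mitosis and cytokinesis, 6.61 for general cargo, 5.99 for neuronal cargo and 5.72 for the cilium, the last at the cutoff. With a stricter cutoff, the 99th percentile of the same receptors, whose mean is 6.379, 23 kinesins were called against 36.1% of all genes.

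**Figure D1:**
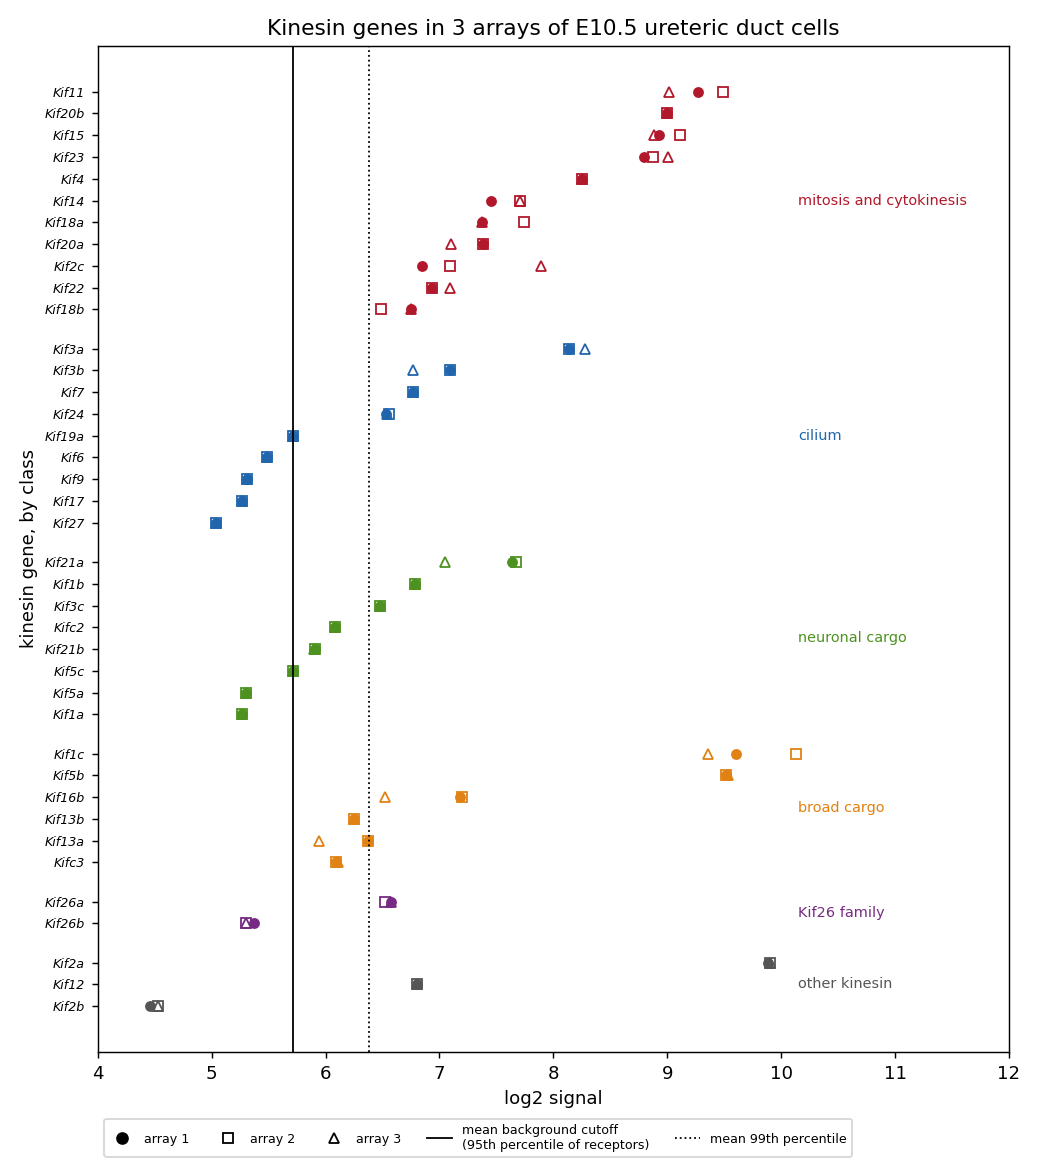
Log2 signal of the 39 kinesin genes, grouped by class and ordered by mean within each class. The symbols are the 3 arrays, the solid line is the mean background cutoff of 5.711 and the dotted line the mean 99th percentile cutoff of 6.379. All symbols of the mitotic class lie right of both lines, while the cilium and neuronal cargo classes straddle the solid line.

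The mitotic motors were above background on every array. Kif11, the bipolar motor that pushes spindle poles apart, read 9.27, 9.49 and 9.02 on arrays 1, 2 and 3. Its mean lay 3.55 ± 0.10 log2 units above the cutoff (limma SE, n = 3; Benjamini-Hochberg adjusted p = 7.1e-05). Kif15, which can share the pole-separating work of Kif11, read 8.92, 9.12 and 8.89. Both genes were highest on array 2 and lowest on array 3.

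Motors of the central spindle and the cleavage furrow were called as well. Kif23, the motor subunit of the centralspindlin complex, read 8.80, 8.88 and 9.01, or 3.18 ± 0.05 log2 units above the cutoff (limma SE, adjusted p = 1.7e-05). Kif20b, which acts late in cytokinesis, read 8.998 (one value) and lay 3.29 log2 units above it. Kif20a, which brings the chromosomal passenger complex to the central spindle, read 7.38, 7.38 and 7.10. Kif4, a chromosome-bound motor that also limits the length of central spindle microtubules, read 8.25 (one value). These 4 motors lay at least 1.57 log2 units above the mean cutoff. Kif14, a further cytokinesis motor, read 7.46, 7.70 and 7.70 from the probe set used. Its other probe set read 3.28, 3.58 and 3.09, below the cutoff on each array, so the call for Kif14 ends when the dimmer probe set or the mean of both is taken.

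Motors that act on chromosomes and microtubule ends were called too. Kif18a, which damps chromosome movement at the metaphase plate, read 7.37, 7.74 and 7.37, and Kif22, a chromosome arm motor, 6.94, 6.94 and 7.09. Kif18b, a regulator of astral microtubule length, read 6.75, 6.49 and 6.75, or 0.96 ± 0.08 log2 units above the cutoff (limma SE, adjusted p = 0.0011). Kif2c, the depolymerase that corrects wrong kinetochore attachments, read 6.84, 7.09 and 7.90. Its range of 1.05 log2 units was the largest of the 39 kinesins, and its call held at 1.57 ± 0.25 above the cutoff (limma SE, adjusted p = 0.0073). Array 3 is the high one for Kif2c, whereas Kif11 was lowest there. With the cutoff raised by 1 log2 unit, 9 of the 11 mitotic kinesins were still called, against 28.3% of all genes, and Kif2c and Kif18b were not.

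Kifc1, a minus-end motor that focuses spindle poles, is read here by a probe set annotated to Kifc1 and Kifc5b together, and was therefore left out of the members. That probe set read 7.54, 7.55 and 7.54, and how its signal divides between both genes cannot be told. The partner genes of these motors were also called throughout: all 15 genes of the spindle and midzone list passed, with a list median of 8.53. That list holds Cenpe as a partner, a kinesin motor gene whose symbol the member rule does not match. Mapre1, a protein that tracks growing microtubule ends, read 9.70 ± 0.11 and Birc5, a subunit of the chromosomal passenger complex, 9.66 ± 0.12 (SD, n = 3). Incenp, the scaffold of that complex, was lowest at 7.09 ± 0.04. At the cutoff raised by 1 log2 unit, 15 of these 15 genes were called.

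Most of the mitotic motors whose promoters could be read held a sequence feature there that the member rule did not use. The hexamer TTTGAA is the core of the cell cycle genes homology region (CHR), an element through which many genes of G2 phase and mitosis are repressed outside those phases. It was searched as TTTGAA and its reverse complement TTCAAA in RefSeq windows of 300 bases, from 250 before to 50 after each annotated start (GRCm38.p6). The motif was chosen with the values known. It is an element of mitotic genes, and the mitotic class was drawn by that function, so its presence is no independent check on the signals. Windows were given for 31 of the 39 kinesins, and those of Kif5a, Kif5b, Kif13b, Kif19a, Kif20a, Kif21b, Kifc2 and Kifc3 were missing. The hexamer occurred for 9 of 10 mitotic kinesins with a window, all but Kif18a, and for 20.2% of all 27025 genes with a window. Among the other classes it occurred for 1 of 8 cilium kinesins (Kif27), 1 of 5 of neuronal cargo (Kif1a), 0 of 3 of general cargo, 1 of 2 of the Kif26 family (Kif26b) and 0 of the 3 remaining kinesins. Within 30 bases of the start, a distance chosen after the positions were seen, it was found for 7 of the 10 mitotic genes and for 3.39% of all genes. A match is a description of letters and not a bound site.

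The sequences below run from 80 bases before the start to 20 bases from it, 5′ to 3′ on the strand of the gene, with TTTGAA or TTCAAA in capitals. The first 5 are mitotic motors with the hexamer close to the start, Kif3a is a cilium motor without it in its window, and Kif26b carries it although its signal lay below background.
Kif11, chr19:37376302-37376401, forward strand: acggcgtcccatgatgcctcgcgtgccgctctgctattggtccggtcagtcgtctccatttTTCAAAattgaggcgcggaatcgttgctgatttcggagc
Kif15, chr9:122951001-122951100, forward strand: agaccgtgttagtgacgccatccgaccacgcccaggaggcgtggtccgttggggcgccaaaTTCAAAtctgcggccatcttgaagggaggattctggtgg
Kif20b, chr19:34922278-34922377, forward strand: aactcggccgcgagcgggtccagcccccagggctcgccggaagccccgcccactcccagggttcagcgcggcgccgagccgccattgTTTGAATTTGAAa
Kif22, chr7:127042401-127042500, reverse strand: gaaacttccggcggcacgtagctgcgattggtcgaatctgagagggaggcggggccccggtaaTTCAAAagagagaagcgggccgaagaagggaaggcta
Kif23, chr9:61946780-61946879, reverse strand: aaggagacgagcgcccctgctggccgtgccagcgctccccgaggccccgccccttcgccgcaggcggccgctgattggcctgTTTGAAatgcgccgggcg
Kif3a, chr11:53567289-53567388, forward strand: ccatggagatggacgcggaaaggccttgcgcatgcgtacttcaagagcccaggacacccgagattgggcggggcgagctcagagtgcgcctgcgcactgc
Kif26b, chr1:178529045-178529144, forward strand: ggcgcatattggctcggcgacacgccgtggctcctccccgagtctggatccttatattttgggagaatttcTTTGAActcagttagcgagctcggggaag
In Kif11 and Kif15 the hexamer begins 19 bases before the start, as TTCAAA, and in Kif20b there are 2 copies in a row just after the start. CCAAT, the core of the box bound by NF-Y and often found upstream of a CHR, occurred on either strand for 6 of the 10 mitotic kinesins, against 41.1% of all genes, and for 5 of the 8 of the cilium class.

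**Figure D2:**
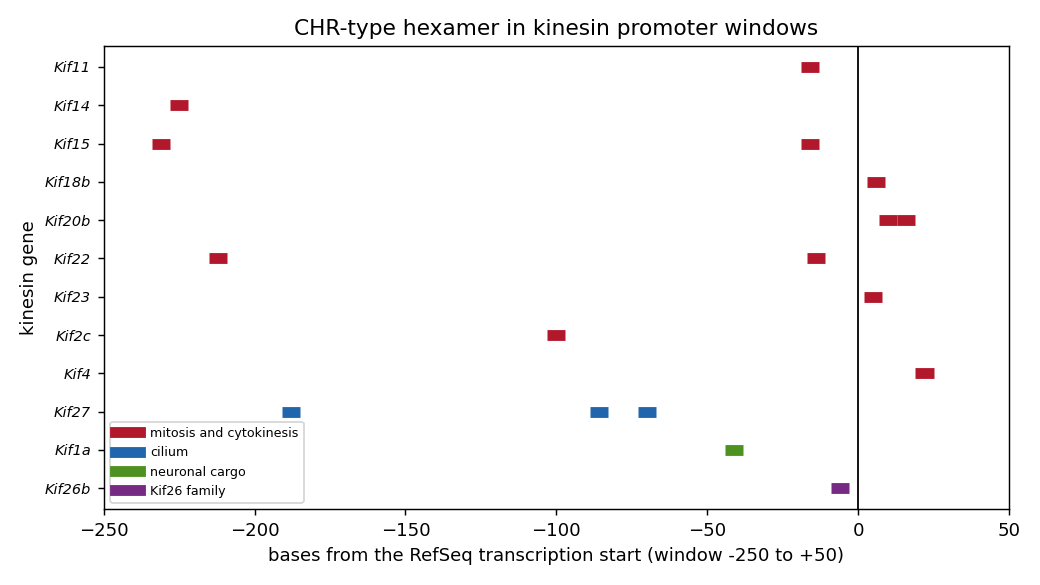
Position of each TTTGAA or TTCAAA in the promoter windows of the 12 kinesin genes that hold one, in bases from the RefSeq start (vertical line). In 7 mitotic genes and in Kif26b a block lies within 30 bases of the start, and in Kif27 and Kif1a the blocks lie farther upstream.

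In the cilium class, the motor of ciliary assembly and the regulator of hedgehog signalling were called. Kif3a, a subunit of the kinesin-2 motor that carries cargo from the base to the tip of the cilium, read 8.14, 8.14 and 8.28, or 2.47 ± 0.04 log2 units above the cutoff (limma SE, n = 3; adjusted p = 2.0e-05). Its partner subunit gene Kif3b read 7.09, 7.09 and 6.77, lowest on array 3. Kif7, which sits at the ciliary tip and tunes Gli factors in hedgehog signalling, read 6.77 (one value), and its other probe set, at 6.53, was called as well. Kif24, which trims microtubules at the mother centriole and so restrains cilium formation, read 6.53, 6.56 and 6.54. These 4 genes lay above the cutoff on each array.

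The other 5 cilium kinesins were not called, and each held one value on the 3 arrays. Kif17, an accessory motor of cilia and dendrites, read 5.26, and Kif27, a relative of Kif7 linked to motile cilia, read 5.04. Kif6 and Kif9, known from motile cilia, read 5.49 and 5.31. Kif19a, which limits the length of motile cilia, read 5.72, 0.01 log2 units above the mean cutoff and above it on 2 of the 3 arrays (limma, adjusted p = 0.60). Without the genes of motile cilia (Kif6, Kif9, Kif19a and Kif27), 4 of 5 cilium kinesins were called, against 56.1% of all genes. The genes left out were all among those not called, so leaving them out could only raise the share.

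Genes that work with the ciliary kinesins were mostly called. In the intraflagellar transport list, 15 of 16 passed, including the kinesin-2 accessory subunit Kifap3, which the list holds as a partner. Ift46 read 8.71 ± 0.04 and Ift20 8.14 ± 0.01 (SD, n = 3), both subunits of the transport trains. Wdr35, a subunit of the retrograde trains, read 5.95, 6.08 and 5.19 and was not called (limma, adjusted p = 0.75), and it was called without array 3, where limma gave all genes a common spread. All 6 genes of the hedgehog list passed, with the receptor gene Ptch1 at 7.26 ± 0.16, Smo at 7.15 ± 0.07 and the Gli inhibitor gene Sufu at 6.29 (one value). At the 99th percentile cutoff 13 of the 16 transport genes and 3 of the 6 hedgehog genes were called, against 36.1% of all genes. Of 6 motile cilium markers, 1 was called, Ccdc39 at 6.51 (one value), while Tekt1 at 5.78 ± 0.11 and the axonemal dynein gene Dnah5 at 4.76 (one value) were not.

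**Figure D3:**
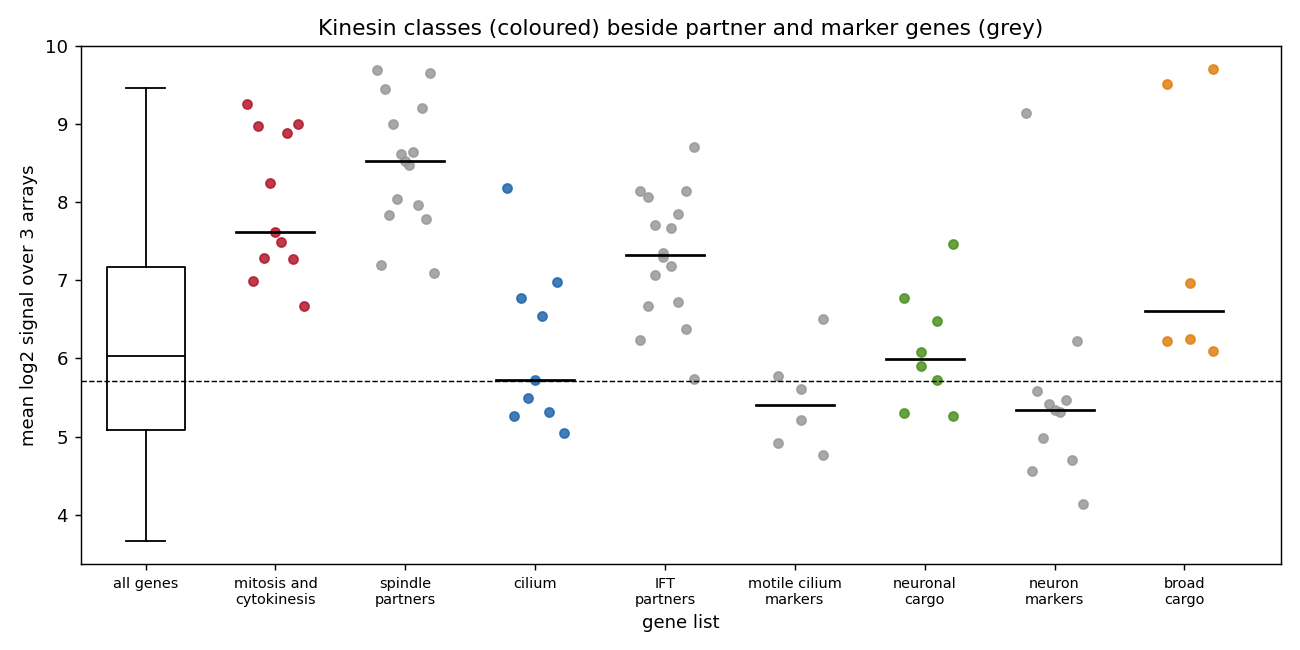
Mean log2 signal over the 3 arrays for kinesin classes (coloured points), partner and marker genes (grey points) and all genes (box, with the median, quartiles and 5th to 95th percentiles); bars are list medians and the dashed line is the mean cutoff of 5.711. The points of the mitotic kinesins and their spindle partners all lie above the line, and 9 of the 11 neuron markers and 5 of the 6 motile cilium markers were not called.

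Kinesins known for long-range transport in neurons divided within the class. The members called with the widest margin are also used outside neurons: Kif21a, which slows microtubule growth at the cell cortex, read 7.64, 7.68 and 7.05, and Kif1b, a carrier of mitochondria and of synaptic vesicle precursors, read 6.78 (one value). Kif3c, the neuron-enriched kinesin-2 subunit, read 6.48 (one value), the dendritic C-terminal motor gene Kifc2 6.08 (one value) and Kif21b 5.910, 5.910 and 5.899. Kif21b lay 0.20 ± 0.01 log2 units above the cutoff (limma SE, adjusted p = 0.00088), and its call ended without array 3, in that same fit.

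Of the 8 genes of this class, 3 did not pass. Kif1a, the main carrier of synaptic vesicle precursors, read 5.26, the neuronal kinesin-1 gene Kif5a read 5.30 and its relative Kif5c 5.72, each with one value. Kif5c lay 0.01 log2 units above the mean cutoff (limma, adjusted p = 0.60). At the 99th percentile cutoff, 2 of the 8 genes of this class were called, Kif1b and Kif21a, against 36.1% of all genes. Without those 2 genes the class gave 3 of 6 at the main cutoff, against 56.1% of all genes. Both were called there, so leaving them out could only lower the share. Of 11 neuron markers, 2 were called, Gap43 at 9.14 ± 0.54 and Dcx at 6.22 (one value), against 56.1% of all genes. The pan-neuronal genes Tubb3, Stmn2, Snap25, Elavl3 and Map2 were not called, Elavl4 was lowest at 4.13 (one value), and the marker list had medians of 5.35, 5.32 and 5.32 on the 3 arrays.

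General cargo motors were all called. Kif5b, the heavy chain of conventional kinesin in most tissues, read 9.52, 9.52 and 9.53, or 3.81 ± 0.02 log2 units above the cutoff (limma SE, n = 3; adjusted p = 2.2e-06). Kif1c, a carrier of vesicles and of messenger RNA, read 9.61, 10.13 and 9.36, with a range of 0.77 log2 units, and its other probe set, at 7.10 ± 0.10 (SD), was called as well. Kif16b, which moves early endosomes, read 7.18, 7.20 and 6.52. Kif13a, a carrier of recycling endosomes, read 6.37, 6.37 and 5.95, Kif13b 6.25 (one value), and Kifc3, a minus-end motor at adherens junctions, 6.10, 6.10 and 6.11. Kif13a, Kif13b and Kifc3 lay below the mean 99th percentile cutoff, and the Kif13a call also ended without array 2.

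Of 11 measured cargo adaptors and kinesin light chains, 10 were called and 2 remained at the 99th percentile, against 56.1% and 36.1% of all genes. The light chain gene Klc1, which links Kif5 heavy chains to cargo, read 8.20 ± 0.07 and the scaffold gene Mapk8ip3 6.93 (one value), while the mitochondrial adaptor gene Trak2, at 5.80 ± 0.07, was not called (limma, adjusted p = 0.069). All 11 genes of cytoplasmic dynein, the motor of the opposite direction, and its cofactors passed, with Pafah1b1 at 9.65 (one value), Dync1i2 at 9.46 ± 0.20 and Bicd2 lowest at 6.38 ± 0.03. Among the remaining kinesins, Kif2a, a depolymerase of spindle poles and growing neurites, read 9.88, 9.91 and 9.91, and Kif12 read 6.81 (one value). Kif2b, a relative of Kif2a, read 4.46, 4.53 and 4.53, below the cutoff on each array. With Kif2a counted among the mitotic motors, that class gave 12 called genes of 12. Kif2b, which was not called, was not counted there, so the unbroken count depends on how the class is drawn.

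Kif26b and Kif26a, relatives whose motor domains are thought to lack ATPase activity, lay on opposite sides of the cutoff. Kif26b read 5.37, 5.30 and 5.30 from the brighter of its probe sets, 0.39 ± 0.03 log2 units below the mean cutoff (limma SE, n = 3). The other Kif26b probe set read 4.26 (one value). Both were below the cutoff on all 3 arrays. Kif26a, known from growth factor signalling in enteric neurons, read 6.57, 6.52 and 6.57, or 0.84 ± 0.02 log2 units above the cutoff (limma SE, adjusted p = 7.1e-05), and lost its call with the cutoff raised by 1 log2 unit. Kif26b was called at the 30th percentile of all probe sets, a cutoff at which 75.3% of all genes and 37 of the 39 kinesins were called. Of 10 markers of the metanephric mesenchyme, 3 were called, against 56.1% of all genes. Among the 3 were Sall1, which the duct also expresses, at 6.99 (one value) and Wt1 at 6.04 (one value). The stromal factor gene Foxd1 was lowest at 4.44 (one value). The list's median was 5.20, 5.13 and 5.10 on the 3 arrays.

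Several kinesins that were not called shared their exact value with many other probe sets. With at least 25 others as the limit, chosen after the values were seen, this held for 6 of the 10 kinesins not called and for 37.2% of all genes not called. It held for 0 of the 29 kinesins called and for 9.02% of all genes called. Kif17 and Kif1a held 5.26245 on every array, a value carried by 112 probe sets. Kif19a and Kif5c held 5.71671, carried by 52, Kif9 held 5.31080, carried by 89, and Kif5a held 5.29864, carried by 27. The shared values of the called kinesins Kif12, Kif13b and Kifc2 were each carried by 1 other probe set. How far such a value reflects the named gene itself was not tested.

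Of the 39 kinesins, 23 did not hold one value throughout the 3 arrays, against 9809 of all 19938 genes. Among these kinesins, the median SD was 0.123 log2 units, against 0.111 for all such genes. Array 3 held the lowest value of 9 of the 39 kinesins (23.1%, against 13.6% of all genes), among them Kif21a, Kif16b, Kif1c, Kif13a and Kif3b. It held the highest value of 6 (15.4%, against 13.1% of all genes). Array 2 held the lowest value of 2 kinesins, Kif18b and Kif26a (5.13%, against 10.4% of all genes). It held the highest value of 7 (17.9%), against 2386 of all 19938 genes. All 9 endothelial markers were lowest on array 2. Array 1, with its high globin signal, held the highest value of 1 kinesin, Kif26b (2.56%, against 10.9% of all genes). It held the lowest value of 6 (15.4%, against 9.67% of all genes). The part of endothelial or red cell RNA in the kinesin signals was not tested. The median of the mitotic class was 7.46, 7.74 and 7.90 on arrays 1, 2 and 3, and the 7.90 is the value of Kif2c. In this class array 3 held the lowest value of 3 genes and the highest of 3. Array 1 held the lowest of 3 and the highest of 0, and array 2 the lowest of 1 and the highest of 3. The median of the cilium class was 5.72 on each array, and that of the gene means of neuronal cargo 5.99.

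**Figure D4:**
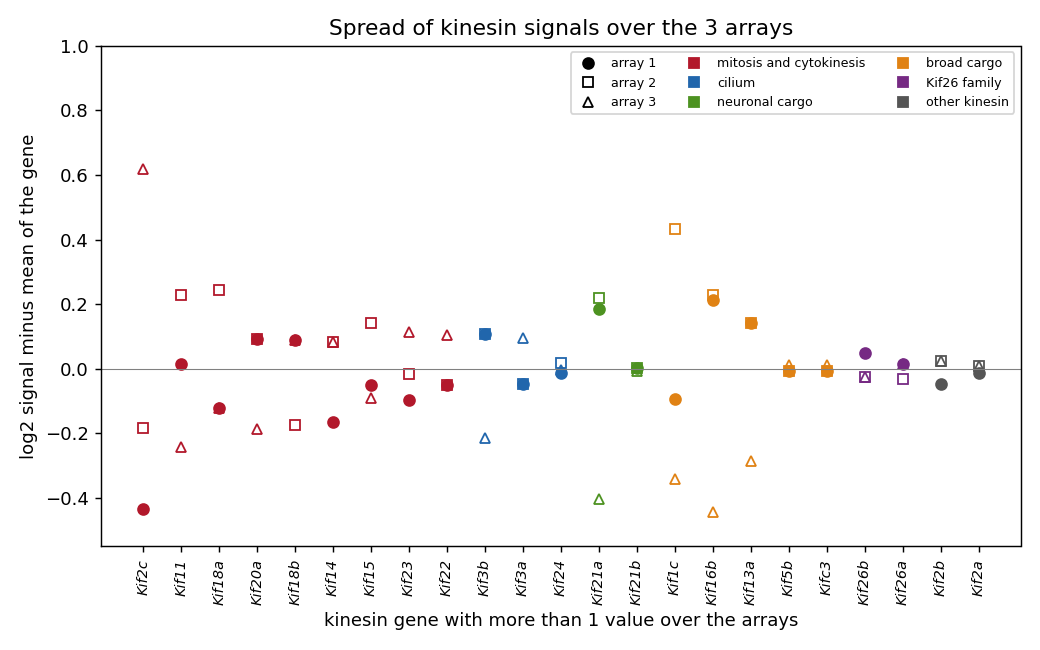
Log2 signal minus the mean of the gene for the 23 kinesins with more than 1 value over the arrays, ordered by class and by range. Kif2c departs most, with array 3 above arrays 1 and 2, and the triangles of array 3 lie lowest for Kif21a, Kif16b, Kif1c, Kif13a and Kif3b.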

How the data were processed

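Log2 signals of 35557 probe sets on 3 arrays were used as the authors deposited them; the log2 scale was read from their range (1.90 to 14.2). The submitters' processing notes name Affymetrix Expression Console; for its algorithm, version and filters, nothing was given in the sources used here. RNA was amplified in 1 round, per the labels. The platform annotation gave 1 symbol to 21789 probe sets, several to 1621 (left out) and none to 12147. Where a gene had several, the brightest by mean was used.

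From each value the cutoff of its array was subtracted. An intercept model in limma (version 3.58.1, under R 4.3.3), moderated by empirical Bayes, gave one-sided p-values, with Benjamini-Hochberg adjustment across the 21789 probe sets. The fit was tested on simulated data in which no probe set held one value on all arrays, so that test does not cover the probe sets that do. The number of arrays limits the precision. Members, classes, partner lists and tests were chosen with earlier results of these data known. The genes named are all kinesins, and of each partner or marker list the 2 brightest and the dimmest by mean. The neuron markers given without values, Kifap3, Cenpe and the names beside small counts were added after values were seen. Alternatives varied the cutoff, the background set, the probe set of a gene, the spread of tied probe sets, a filter on dim probe sets, the call rule, class membership and the arrays used.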

Additional observations from a re-analysis of the deposited data

How the results depend on the processing

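The counts depend on the cutoff. With it raised by 1 log2 unit, 17 kinesins were called, 2 of the cilium class, 2 of neuronal cargo, 2 of general cargo and 0 of the Kif26 family. At the 99th percentile neuronal cargo gave 2 and general cargo 3. At the 30th percentile of all probe sets, the cilium class gave 8, neuronal cargo 8 and the Kif26 family 2. The shares of all genes called at these 3 cutoffs were 28.3%, 36.1% and 75.3%. Without Kif1b and Kif21a, neuronal cargo gave 3. Kinesin counts under the other settings stayed within 1.5 times those reported. Among marker lists, the red cell count of 1 became 2 at the 90th percentile and without array 1, and 3 without array 3 and when a value above the cutoff on all 3 arrays sufficed. The motile cilium count of 1 became 3 at the 90th percentile. The 30th percentile of all probe sets brought it to 4 and the red cell count to 3. There the neuron count of 2 became 7 of 11, and the mesenchyme count of 3 became 6 of 10. Each stricter cutoff left 1 neuron marker, 1 mesenchyme marker and 0 red cell markers called. Under the remaining settings the neuron and mesenchyme counts were 2 or 3. No motile cilium marker passed once 1 log2 unit was added. Leaving out 1 array gave 28 to 29 kinesins, 11 mitotic, 4 of the cilium, 4 to 5 of neuronal cargo, 5 to 6 of general cargo and 1 of the Kif26 family. The shares of all genes called without array 1, 2 and 3 were 55.2%, 54.8% and 51.9%.

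Distances from the cutoff turned negative at the 99th percentile for Kif13a (-0.15), Kif13b (-0.13), Kif21b (-0.47), Kifc2 (-0.30), Kifc3 (-0.28), Bicd2 (-0.0026), Dcx (-0.16), Esam (-0.33), Sufu (-0.09), Wnt11 (-0.38) and Wt1 (-0.34). With the cutoff raised by 1 log2 unit they were -0.48 for Kif13a, -0.46 for Kif13b, -0.04 for Kif18b, -0.80 for Kif21b, -0.17 for Kif24, -0.16 for Kif26a, -0.23 for Kif3c, -0.63 for Kifc2, -0.61 for Kifc3, -0.33 for Bicd2, -0.20 for Ccdc39, -0.49 for Dcx, -0.66 for Esam, -0.42 for Sufu, -0.72 for Wnt11 and -0.68 for Wt1. These follow from the higher cutoffs. Kif3b (0.27), Kif16b (0.26) and Kif2c (0.57) stayed above the raised cutoff but lost their calls (limma, adjusted p = 0.077, 0.37 and 0.17). Kif7 (0.06) and Kif1b (0.07) lay closer to it and kept their calls (limma, adjusted p = 0.047 and 0.027). Both hold one value, so their p-values are too small, and the calls at this cutoff do not follow distance alone. Kif14 gave -2.40 from its dimmer probe set and -0.24 from the mean of both. No paired analysis was possible because the samples form a single group. Signal over background is the limit for genes near the cutoff.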
